A study of Mus musculus with 10 samples.

Results

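The transcription factors described here, Gfi1, Sox4, Foxa1, Foxa2, Foxa3, Creb3l1 and Creb3l4, belong to the secretory lineage and were measured in sorted epithelial cells of the mouse small intestine. The 7 genes were taken by name from the 35006 gene names of the count tables. All 7 passed the filter on low counts, which kept 13708 genes.

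The crypts of the small intestine hold stem cells that give rise to absorptive enterocytes and to secretory cells. Of the secretory types known there, goblet cells make mucus, Paneth cells make antimicrobial peptides and lysozyme, enteroendocrine cells make hormones, and tuft cells sense the contents of the gut. Cells that escape Notch signalling express Atoh1, the factor that opens the secretory programme. Gfi1, a zinc-finger repressor, acts after Atoh1 and is known for holding back the enteroendocrine branch in favour of Paneth and goblet cells. Foxa1, Foxa2 and Foxa3 are forkhead factors that can bind closed chromatin, and Foxa1 and Foxa2 are known for their part in goblet and enteroendocrine differentiation. Creb3l1 and Creb3l4 belong to a family of leucine-zipper factors that are held in the membrane of the endoplasmic reticulum and are released by cleavage, and Creb3l1 is known for the late maturation of goblet cells. Sox4, a factor with an HMG box, is known from crypt progenitors of the tuft and enteroendocrine branches.

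The libraries came from EF1a-OSCAR mice of strain C57BL6/J, in which the EF1a promoter drives mCherry and the Venus variant VeN90, made from 1 message and separated by a self-cleaving peptide, from the Rosa26 locus after a stop cassette was removed with Vasa-cre. VeN90 loses its green fluorescence when the kinase CDK9 phosphorylates it, so a high OSCAR ratio of VeN90 to mCherry stands for low CDK9 activity, and the EF1a level stands for the overall amount of reporter. Live EpCAM+ crypt cells were sorted into P1 (OSCARlow EF1alow), P2 (OSCARhigh EF1alow), P3 (OSCARlow EF1ahigh), P4 (OSCARmed EF1alow) and P5 (OSCARmed EF1ahigh), with 10000 cells in each sort and 2 biological replicates of each population. Every population carries the reporter and none was treated, and how many mice went into a replicate, their age and their sex are not given in the sources used here.

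Levels are counts-per-million values (CPM), the count of a gene relative to the total of its library after TMM scaling, which corrects for a few genes taking a large share of a library. Gene counts per library totalled from 3857612 to 6485823. The mitochondrial share of these counts was 59.2% and 36.1% for the P3 libraries and ranged from 1.04% to 5.19% for the remaining 8. The labels of P2 and P3 need care. Summed markers of Paneth cells stood at 568909 and 409222 CPM in the libraries labelled P2 and at 3444 and 1842 in those labelled P3, and the goblet, enteroendocrine and tuft lists were likewise highest in the libraries labelled P2. The study's text places mature secretory cells in its P3 gate. No library was renamed, and "P2" and "P3" below mean the libraries that carry those labels. Epithelial markers (Epcam, Krt8, Krt18 and Cdh1) summed to between 2698 and 5397 CPM in all 10 libraries, whereas the 8 mesenchyme markers summed to 25.8 and 50.5 CPM in P2 and to between 1.94 and 19.1 elsewhere. Almost all of the P2 sum was Vim, the 1 marker of the list that passed the filter, which was called higher in P2. The fibroblast gene Col1a1 and 5 others of the list were at 0 in both P2 libraries, and the part of such cells in the levels below was not tested.

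Of the 7 factors, 6 had their highest level in the libraries labelled P2, and Sox4 had its highest in P4 and P5. In bulk samples, fewer cells of a type and less RNA per cell cannot be told apart, so a level is the level of a sorted population.

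**Figure D1:**
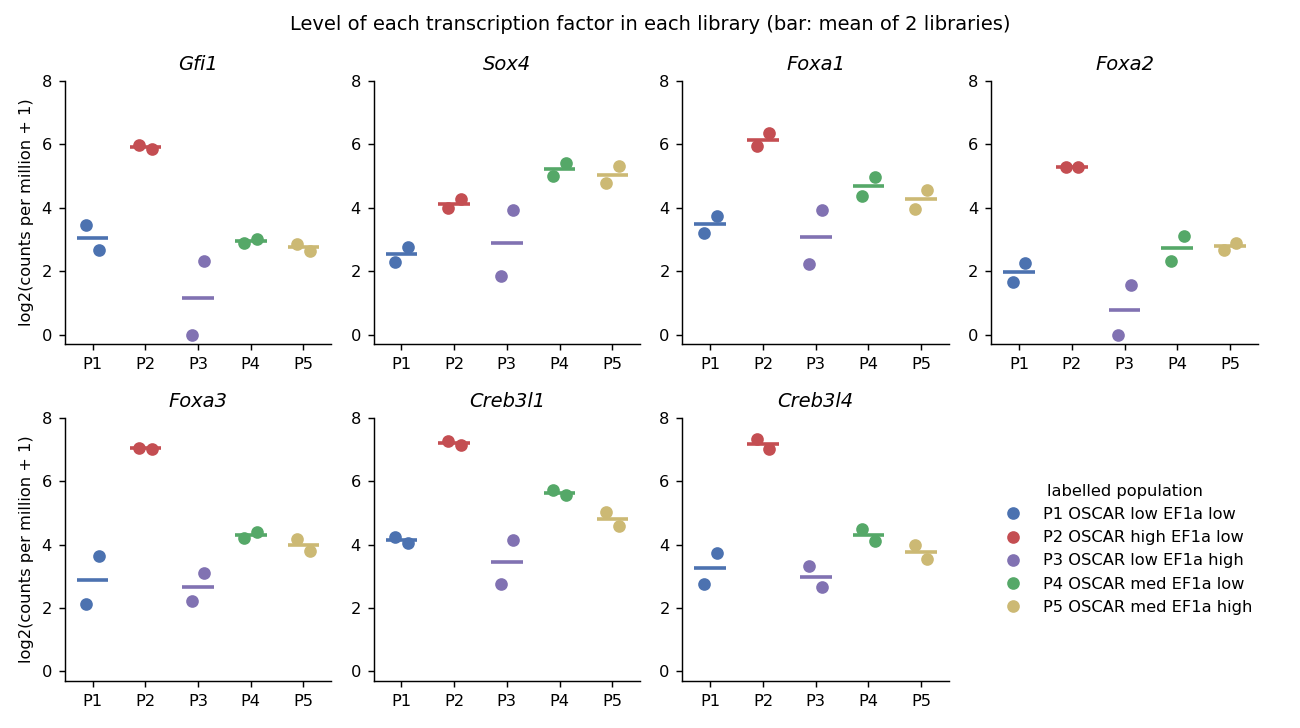
Level of each of the 7 factors in each of the 10 libraries, as log2(CPM + 1), with 1 panel per gene. Points are libraries and bars are means of 2. Gfi1, Foxa1, Foxa2, Foxa3, Creb3l1 and Creb3l4 are highest in both P2 libraries, while Sox4 is highest in P4 and P5.

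Gfi1 (ENSMUSG00000029275.10) lies on the minus strand of chr5:108145674-108155056 in NCBIM37, the genome build also known as mm9. Its level was 62.6 and 57.2 CPM in the 2 libraries of P2. It was 9.97 and 5.34 CPM in P1, 6.49 and 7.12 in P4, and 6.28 and 5.28 in P5. In P3 it was 0 and 3.98 CPM, from 0 and 18 counts. Both P2 libraries therefore stood above every other library, with no overlap. A count of 0 in that P3 library allows a share of up to 7.78e-05% of its counts, and covers counting error only. Gfi1 is also expressed in blood cells, and lymphocyte markers were present. The 8 lymphocyte markers summed to 1121 and 320 CPM in P1, to 169 and 3.76 in P3, to 16.4 and 22.9 in P2 and to between 2.11 and 6.40 in P4 and P5. In both P2 libraries, 3 of the 8 were at 0. Ptprc, the pan-leukocyte phosphatase, stood at 112 and 25.7 CPM in P1 and at 14.3 and 22.2 CPM in P2. In P4 and P5 Ptprc was between 0.0989 and 1.26 CPM, so Ptprc, like Gfi1, was higher in P2 than in P4 and P5. Ptprc made up most of the lymphocyte sum in P2, so this difference is that of Ptprc and not of the whole list. The part of blood cells in the Gfi1 level was not tested.

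The 3 Foxa genes were likewise highest in P2. Foxa3 (ENSMUSG00000040891.5, minus strand of chr7:19598631-19608887) stood at 132 and 128 CPM in P2. Its next highest population was P4, with 17.4 and 19.9 CPM, followed by P5 with 16.9 and 13.0. It was lowest in P1, with 3.38 and 11.3 CPM, and in P3, with 3.70 and 7.53. Foxa2 (ENSMUSG00000037025.5, minus strand of chr2:147868613-147872705) gave 37.7 and 37.8 CPM in P2, almost the same value in both libraries. The remaining 8 libraries held between 0 and 7.72 CPM of Foxa2, and replicate 1 of P3 had no count of it. Foxa1 (ENSMUSG00000035451.6, minus strand of chr12:58641618-58647108) had the narrowest gap of the 3. It stood at 60.8 and 80.7 CPM in P2, at 19.8 and 30.4 in P4 and at 14.7 and 22.5 in P5. In P1 it was 8.28 and 12.3 CPM, and in P3 3.70 and 14.4. None of these groups overlapped P2 in TMM-scaled CPM.

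The Foxa genes are paralogs, so shared reads were checked for. The coding sequences of Foxa1 and Foxa2 were identical at 75.4% of 1297 aligned bases, those of Foxa1 and Foxa3 at 71.3% of 1061 and those of Foxa2 and Foxa3 at 72.2% of 1045. No stretch of 75 bases in the annotated coding transcripts of Foxa1, Foxa2, Foxa3, Sox4, Creb3l1 or Creb3l4 occurred in a transcript of another gene, and Gfi1 has no coding transcript in that file.

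Creb3l1 and Creb3l4 were also highest in P2. Creb3l1 (ENSMUSG00000027230.9, minus strand of chr2:91822485-91864659) stood at 154 and 139 CPM there. It reached 52.0 and 46.0 CPM in P4 and 31.8 and 22.9 in P5, and was lower in P1, with 17.9 and 15.7, and in P3, with 5.82 and 16.8. Both P4 libraries stood above both P5 libraries, and both P5 libraries above both P1 libraries. Creb3l4 (ENSMUSG00000027938.5, minus strand of chr3:90041422-90047434) stood at 161 and 129 CPM in P2. Its other values ran from 5.31 CPM in a P3 library to 21.7 CPM in a P4 library. The coding sequences of these 2 genes were identical at 65.1% of 1089 aligned bases, and their longest shared run was 14 bases.

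Sox4 (ENSMUSG00000076431.3, minus strand of chr13:29040788-29045582) was the exception. It stood at 31.2 and 41.5 CPM in P4 and at 26.3 and 38.5 CPM in P5. In P2 it was 14.9 and 18.2 CPM, below all 4 of those libraries. P1 held 3.89 and 5.84 CPM, and P3 held 2.64 and 14.4, from 5 and 65 counts. The P2 values were therefore above P1 and close to the higher P3 library. Sox4 is a gene of 1 exon part, and 54.6% of its 4795 exon bases lie opposite Gm17419 on the other strand. Reads there are ambiguous in a count that ignores strand between the 2 genes, and Gm17419 itself had 0 counts in all 10 libraries. The name Sox4 is carried by 2 gene IDs in this annotation. Gfi1 shares 3.11% of its exon bases with A430072P03Rik, which had at most 4 counts in a library.

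Levels of different genes were compared per kilobase of annotated exon. In P2, Creb3l4 was highest, at 86.3 ± 13.7 CPM per kilobase (SD, n = 2), followed by Foxa3 at 63.7 ± 1.41 (SD, n = 2) and Creb3l1 at 56.3 ± 3.83 (SD, n = 2). The level per kilobase was 22.2 ± 4.42 for Foxa1, 18.4 ± 1.19 for Gfi1 and 15.9 ± 0.0323 for Foxa2 (SD, n = 2 each). Sox4 was lowest of the 7 in P2, at 3.46 ± 0.492 (SD, n = 2), or 7.60 ± 1.08 over only the exon bases that Gm17419 does not share. In P4 the order per kilobase differed and, for Sox4, depended on the exon bases counted. Creb3l1 led there with 18.8 ± 1.64, then Creb3l4 with 11.3 ± 2.34, Foxa3 with 9.14 ± 0.866, Foxa1 with 7.87 ± 2.34 and Sox4 with 7.59 ± 1.52 (SD, n = 2 each). Over the bases not shared with Gm17419, Sox4 stood at 16.7 ± 3.35 CPM per kilobase in P4 (SD, n = 2), which would place it next to Creb3l1. Foxa2 and Gfi1 stood at 2.48 ± 1.10 and 2.09 ± 0.138 CPM per kilobase in P4 (SD, n = 2 each).

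**Figure D2:**
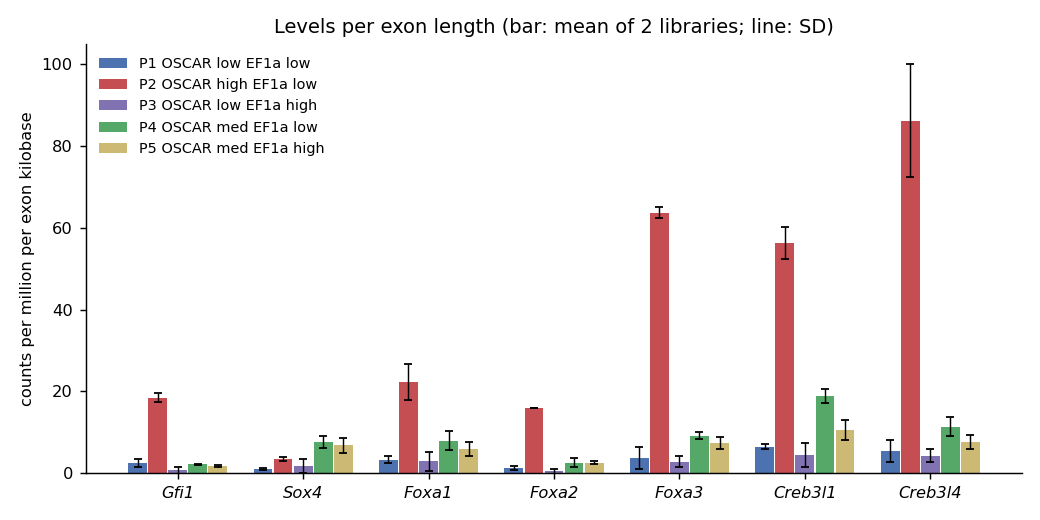
Level per exon length, in CPM per kilobase of exon, of each factor in each population. Bars are means of 2 libraries and lines are SDs. In P2, Creb3l4 reaches 86.3, Foxa3 63.7 and Creb3l1 56.3, while Sox4 is at 3.46 in P2 and 7.59 in P4 over all its exon bases, against 7.60 and 16.7 over those not shared with Gm17419.

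The first comparison asked how the libraries labelled P2 (OSCARhigh EF1alow) differed from the average of the other 4 populations. Of the 7 factors, 6 were higher in P2 and none was lower, at an adjusted p under 0.01 (edgeR's quasi-likelihood test, p-values adjusted by Benjamini-Hochberg across 13708 genes). Of all genes tested, 27% were called in either direction, 16.3% higher and 10.7% lower. The median log2 fold change of the 7 was 3.46, against -0.000431 over all genes. Creb3l4 had the largest difference, 13.1-fold (95% interval 8.91 to 19.3), or a log2 fold change of 3.71 (standard error 0.25, adjusted p = 1.39e-05). Foxa3 was 12.3-fold higher (7.72 to 19.6, adjusted p = 3.11e-05) and Gfi1 was 11.4-fold higher (6.26 to 20.7, adjusted p = 0.000133). Foxa2 was 10.97-fold higher (6.03 to 20.0, adjusted p = 0.000146). The smaller called differences were those of Creb3l1, 6.40-fold (4.43 to 9.25, adjusted p = 4.36e-05), and Foxa1, 4.79-fold (2.86 to 8.03, adjusted p = 0.000657). Sox4 had a ratio of 1.09 with a 95% interval from 0.570 to 2.09 (adjusted p = 0.841). Its mean level in P2 lay between those of P4 and P5 above and P1 and P3 below.

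The libraries labelled P3, with their high mitochondrial share, enter that average. Without both of them, the same 6 factors were higher in P2 and the log2 fold change was 3.16 for Gfi1, 2.99 for Foxa2, 3.35 for Foxa3, 2.38 for Creb3l1, 3.48 for Creb3l4 and 2.07 for Foxa1. Leaving out replicate 2 of P3 alone makes the fit lean on the library that holds no count of Gfi1 or Foxa2, and their log2 fold changes became 5.24 and 4.95. Foxa1 lost its call when replicate 2 of P2 was left out (adjusted p = 0.0136 in the same edgeR test).

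Against the single populations, 25 of the 70 tests of the 7 factors over the 10 pairs of populations were called, 22 of them between P2 and another population. P2 exceeded P1 in 6 factors, where 13.9% of all genes were called higher in P2. It exceeded P3 in 6, with 10.5% of all genes. It exceeded P4 in 5, with 8.02% of all genes, and P5 in 5, with 8.75%. Gfi1, Foxa2, Foxa3, Creb3l1 and Creb3l4 passed in all 4 of these comparisons. Foxa1 passed against P1 and P3 and not against P4, where its log2 fold change was 1.49 (95% interval 0.44 to 2.55, adjusted p = 0.0394), or P5, where it was 1.93 (0.86 to 2.995, adjusted p = 0.0144). With a block for the replicate number in the fit, Foxa1 passed against P4 (adjusted p = 0.00440) and P5 (adjusted p = 0.00135) in edgeR's test. P4 was also the nearest population to P2 for Foxa3, Creb3l1 and Creb3l4, whereas P1 was the nearest for Gfi1, and P4 and P5 were equally near for Foxa2. The log2 fold changes of P2 against P4 were 3.13 for Gfi1, 2.94 for Creb3l4, 2.80 for Foxa3, 2.67 for Foxa2 and 1.58 for Creb3l1 (highest adjusted p of these 5 = 0.00842, for Creb3l1). TMM factors were 0.689 and 0.708 for P2 and 1.51 and 1.56 for P4. They raise P2 relative to P4 for every gene. Creb3l1 had 505 and 627 counts of 4774782 and 6346125 in P2, and 425 and 465 of 5393638 and 6474793 in P4. Of the same totals, Foxa1 had 200 and 363 in P2 and 162 and 307 in P4. No fit without scaling was run. With mitochondrial genes removed, Creb3l1 had a log2 fold change of 1.52 against P4 and missed the threshold (adjusted p = 0.0127 in the same edgeR test). Against P3 the values ran from 2.85 for Foxa1 to 4.84 for Foxa2, and those of Gfi1 and Foxa2 rest on a P3 library with no count of either gene. These calls depend on both P2 libraries. Without replicate 1 of P2, 12 of the 25 calls were lost, and without replicate 2, 10, with Gfi1, Foxa2, Foxa3 and Creb3l1 against P4 lost in both cases, and likewise without either P4 library. Creb3l4 against P4 was lost only without replicate 2 of P4. The Creb3l1 call against P4 was also lost when any library of P1 or P5 was left out. That of Foxa2 was also lost without replicate 2 of P1 or either library of P5.

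**Figure D3:**
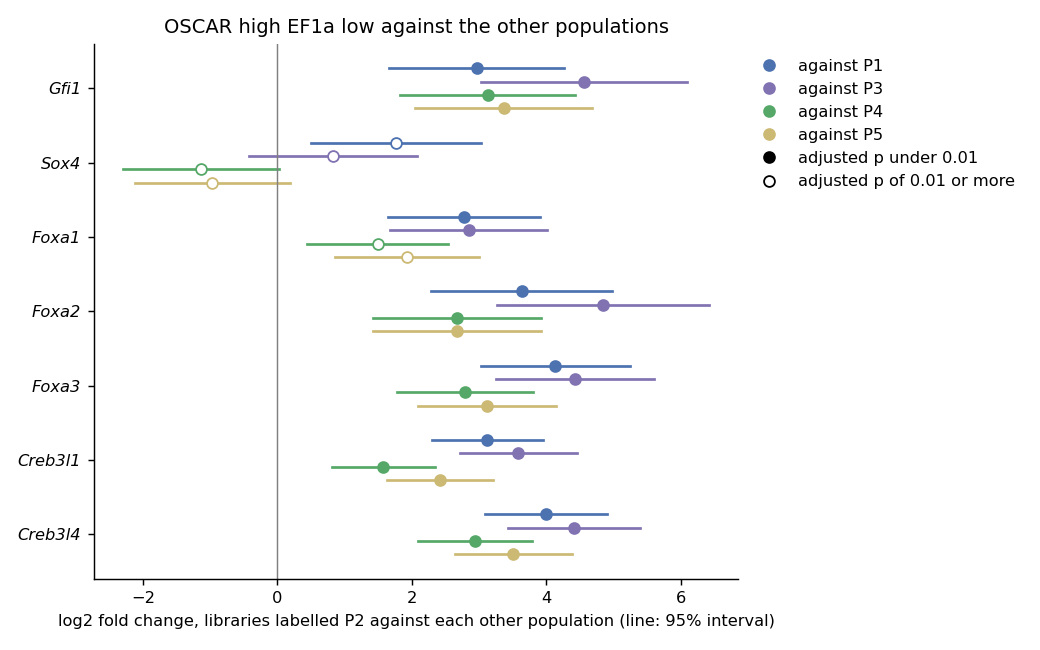
Log2 fold change of each factor in P2 against P1, P3, P4 and P5, with 95% intervals from the fit. Filled points have an adjusted p under 0.01. Gfi1, Foxa2, Foxa3, Creb3l1 and Creb3l4 are filled in all 4 comparisons, Foxa1 against P1 and P3, and Sox4 in none.

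Sox4 passed in none of the comparisons with P2. Its log2 fold change was 1.77 against P1 (95% interval 0.50 to 3.03, adjusted p = 0.0281) and 0.83 against P3 (adjusted p = 0.268). It was -1.13 against P4 (-2.29 to 0.03, adjusted p = 0.133) and -0.96 against P5 (-2.12 to 0.20, adjusted p = 0.190). With the replicate block, Sox4 passed against P1 (adjusted p = 0.00684 in edgeR's test). With 2 libraries each, the intervals against P4 and P5 reach from a large excess in those populations to just past no difference.

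The remaining called tests involved P1. Sox4 was lower in P1 than in P4 by a log2 fold change of -2.90 (adjusted p = 0.00386) and lower than in P5 by -2.73 (adjusted p = 0.00576). Creb3l1 was lower in P1 than in P4 by -1.54 (adjusted p = 0.00764). Both Sox4 calls were lost when either library of P1 or P4 was left out, that against P5 also when either library of P5 was, and the Creb3l1 call when any library other than those of P3 was. Between P1 and P4, 9.44% of all genes were called lower in P1, and between P1 and P5, 8.58%. P1 was the population richest in enterocyte markers, with 24875 and 20330 CPM over 8 genes. Of the other factors, Foxa1, Foxa3 and Creb3l4 had log2 fold changes of P1 against P4 between -1.34 and -1.06, with adjusted p between 0.0426 and 0.0577. None of the 7 was called between P1 and P3, where 15.6% of all genes were.

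Between P3 and the OSCARmed populations no gene of the 13708 was called by edgeR's quasi-likelihood test, so 0 of the 7 factors passed against a background of 0%. All 7 factors had both P3 libraries below both P4 libraries. The share of all genes that do the same was not counted, so this is a description and no result about the 7. An unadjusted p under 0.05 between P3 and P4 was reached by 6 of the 7, as by 2080 genes in all, and between P3 and P5 by 4 of the 7, as by 1587 genes. The log2 fold changes of P3 against P4 ran from -2.17 for Foxa2 to -1.35 for Foxa1, with -2.01 for Creb3l1 (adjusted p = 0.111). DESeq2 called 123 genes between P3 and P4, among them Creb3l1 (adjusted p = 0.000335), and 43 genes between P3 and P5 with none of the 7. With no filter on low counts, edgeR called 541 genes between P3 and P4, 6 of the 7 factors among them, and 303 genes between P3 and P5, with 4 of the 7. The mitochondrial share of P3, 59.2% and 36.1%, moves with these differences. With mitochondrial genes removed before scaling, 6 of the 7 had an unadjusted p under 0.05 between P3 and P4 in edgeR's test. So did 1927 of the 13887 genes tested then. None was called (lowest adjusted p = 0.113). Removing these genes changes the scaling and not the cells or the RNA of the P3 libraries, so the part of the mitochondrial share was not tested.

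P5 and P4 share the OSCARmed gate and differ in the EF1a level. None of the 7 factors was called between them, at a background of 0%, and the edgeR test gave 351 genes an unadjusted p under 0.05. Creb3l1 was the one factor among these 351, with a log2 fold change of P5 against P4 of -0.84 (95% interval -1.60 to -0.08, unadjusted p = 0.0333 in the same edgeR test). The 95% intervals of the other 6 included 0, and the widest, that of Foxa2, ran from -1.44 to 1.44. DESeq2 called 30 genes between P5 and P4 and none of the 7, and edgeR without the filter called 195 genes and none of the 7. Whether the EF1a level goes with a different change at low OSCAR (P3 against P1) than at medium OSCAR (P5 against P4) was tested as an interaction. It takes the label of P3, which the markers put in question, as it stands. None of the 7 passed, with a lowest adjusted p of 0.319, while 0.817% of all genes did. DESeq2 called 2052 genes in the interaction, and none of the 7.

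Ordered by their mean level, Foxa1, Foxa3, Creb3l1 and Creb3l4 ran P2, P4, P5, P1, P3 from highest to lowest. Foxa2 ran P2, P5, P4, P1, P3, and Gfi1 ran P2, P1, P4, P5, P3. Sox4 ran P4, P5, P2, P3, P1. Of the neighbours in these orders, P2 and the population next to it passed the test for Gfi1, Foxa2, Foxa3, Creb3l1 and Creb3l4. For Foxa1, P2 and P4 did not overlap in TMM-scaled CPM but missed the threshold, with the values given above. No other neighbours passed for any of the 7.

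The promoters of the factors were read from the RefSeq promoter table of GRCm38.p6, which holds 11 start sites for Gfi1, Sox4, Foxa1, Foxa2, Foxa3 and Creb3l4. Creb3l1 is not in that table. In the 250 bases before each start, both strands were searched for CAGCTG and CAGATG (E-boxes of the kind bound by factors such as Atoh1), TGTTTAC and TATTTAC (forkhead motifs), TGACGTCA and TGACGTG (motifs of the CREB type), AATCAC (the Gfi1 core) and ACAATG (a Sox motif). In all, 3 matches were found, 1 each in Creb3l4, Foxa1 and Sox4, and the stretches that hold them are shown outside annotated exons, with the match in capitals.
Creb3l4, GRCm38.p6 chr3:90243144-90243307, minus strand: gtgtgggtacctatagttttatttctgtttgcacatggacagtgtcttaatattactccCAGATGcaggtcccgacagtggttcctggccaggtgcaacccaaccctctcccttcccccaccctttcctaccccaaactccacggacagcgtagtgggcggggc
Foxa1, GRCm38.p6 chr12:57546122-57546361, minus strand: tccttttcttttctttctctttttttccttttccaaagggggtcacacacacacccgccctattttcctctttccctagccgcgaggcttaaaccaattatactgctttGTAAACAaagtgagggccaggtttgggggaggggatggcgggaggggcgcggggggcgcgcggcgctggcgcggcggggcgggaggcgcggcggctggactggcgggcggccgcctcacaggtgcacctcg
Sox4, GRCm38.p6 chr13:28953714-28953949, minus strand: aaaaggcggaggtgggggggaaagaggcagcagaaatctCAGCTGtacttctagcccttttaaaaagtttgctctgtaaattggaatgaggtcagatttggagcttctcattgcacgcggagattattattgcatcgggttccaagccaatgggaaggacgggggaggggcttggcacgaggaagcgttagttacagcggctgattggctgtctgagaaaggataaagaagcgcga
The match in Creb3l4 is CAGATG, beginning 105 bases before 1 of its start sites. The match in Foxa1, beginning 141 bases before the start, is TGTTTAC read on the opposite strand. The match in Sox4 is CAGCTG, beginning 211 bases before the start. Of 32851 promoter windows of the same length, CAGATG was in 14.4%, CAGCTG in 13.0% and TGTTTAC in 3.17%. None of the 8 motifs was shared by the promoters of 2 of the factors, and the 5 others, found in between 1.55% and 10.7% of all windows, had no match. A match of letters is a description of the window and says nothing about binding.

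A list of 30 further regulators of crypt fate was examined beside the 7. Of these, 19 exceeded the mean of the other populations in P2, 4 were lower and 7 did not pass, against 16.3% of all genes called higher and 10.7% lower. The median log2 fold change was 2.70. Isl1, Pou2f3 and Pax4 had no count in either P3 library, so their fitted values are no bounds, and with these 3 genes set at 3 counts per library in P3 the median was 2.36. Atoh1 stood at 135 and 164 CPM in P2 and between 3.17 and 17.02 elsewhere, a log2 fold change of 3.94 (adjusted p = 7.39e-06). Spdef, which drives goblet and Paneth maturation, had a log2 fold change of 3.99 (adjusted p = 7.39e-06). The differences of Creb3l4, Foxa3, Gfi1 and Foxa2 were thus close in size to those of Atoh1 and Spdef, while Creb3l1 and Foxa1 lay nearer to Sox9, at 2.11 (adjusted p = 6.16e-05), and Xbp1, a regulator of secretory capacity, at 1.99 (adjusted p = 6.73e-05). Higher fitted values were those of Bhlha15 (also called Mist1, a factor of secretory cell architecture), with a log2 fold change of 5.99, and the enterochromaffin factor Lmx1a, with 5.19, each with no count in 1 P3 library. Isl1 had log2 fold changes of 4.18 against P1 and 4.01 against P5, and of 1.83 against P4, where it did not pass (adjusted p = 0.0356). Pou2f3, the factor that tuft cells require, had 3.25 against P1 and 3.01 against P5, and 2.33 against P4, where it did not pass (adjusted p = 0.0169). Klf4 was higher by 1.66 (adjusted p = 0.000576), although its level was above that of P2 in P1, with 521 and 708 CPM against 212 and 378.

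Of the Notch pathway, the receptors Notch2 and Notch1 and the target Hes1 were lower in P2, with log2 fold changes of -3.09, -2.23 and -1.66 (highest adjusted p = 0.00120, for Hes1), and the ligand Dll1 was higher by 1.596 (adjusted p = 0.000172). The ligand Dll4 was also called higher, at 90.3 and 79.4 CPM in P2 and between 3.17 and 14.3 elsewhere. Rbpj, Jag1 and Dtx4 of the same pathway did not pass. Against P1 alone, Notch2 was called lower in P2, but Notch1 and Hes1 did not pass. Notch1 was at 19.8 and 9.17 CPM in P1 and at 9.43 and 8.67 in P2. Hes1 was at 14.0 and 20.2 CPM in P1 and at 9.12 and 11.3 in P2. Dll1 did not pass against P4. The intestinal factor Cdx2 was lower by -1.18 (adjusted p = 0.00258). Neurog3, the factor of enteroendocrine progenitors, did not pass, with a log2 fold change of -1.58 (adjusted p = 0.204). Its level was 14.7 and 11.9 CPM for P4, 3.66 and 3.80 for P5, and only 0 and 1.56 for P2, so it was highest in the population where Sox4 was highest. Gfi1b, the paralog of Gfi1 and a tuft cell factor, had a log2 fold change of 2.39 and did not pass (adjusted p = 0.0109).

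**Figure D4:**
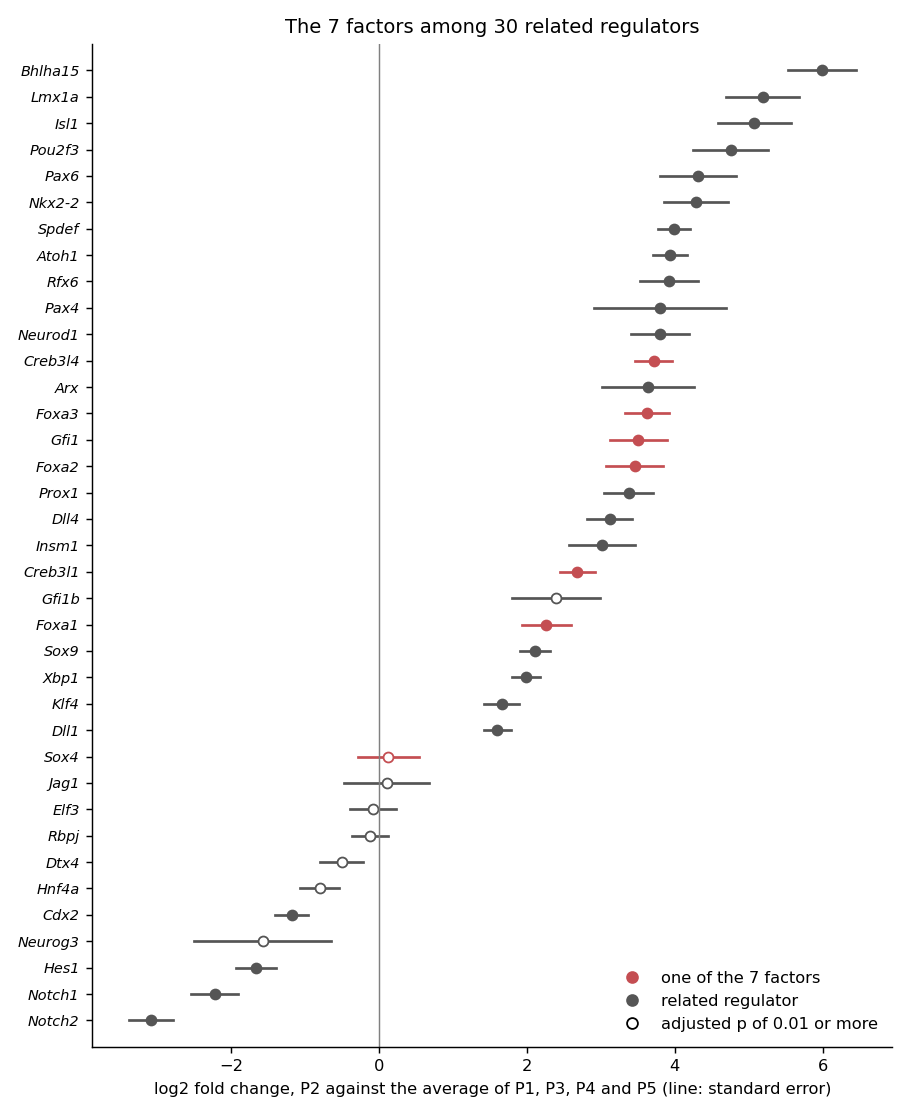
Log2 fold change in P2 against the average of P1, P3, P4 and P5 for the 7 factors (red) and 30 related regulators (grey), with standard errors. Open points have an adjusted p of 0.01 or more. Creb3l4, Foxa3, Gfi1 and Foxa2 lie between 3.46 and 3.71, near Atoh1 at 3.94 and Spdef at 3.99, and Sox4 lies at 0.13.

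Of 13 structural relatives of the 7, Sox11 and Foxj1 were left out by the filter on low counts and 11 were tested. In P2, 2 of the 11 were higher, Atf6 by a log2 fold change of 1.63 (adjusted p = 3.54e-05) and Atf6b by 1.403 (adjusted p = 7.48e-05), both membrane-held factors of the unfolded protein response, and none was lower. That share, 18.2%, was near the 16.3% of all genes called higher. The median of the 11 was 0.88. Within the CREB3 family, Creb3 had a log2 fold change of 0.51 (adjusted p = 0.0988), Creb3l2 of 1.15 (adjusted p = 0.0656) and Creb3l3, a factor of enterocytes and liver, of -2.95 (adjusted p = 0.0182). Creb3l3 stood at 19.2 and 40.9 CPM in P2 and at 607 and 319 CPM in P1. Among forkhead relatives, the values were 0.88 for Foxp1 (adjusted p = 0.0141), -0.21 for Foxo3, -0.44 for Foxo1 and -1.31 for Foxq1 (lowest adjusted p of the last 3 = 0.122). Sox12 had a value of 1.77 (adjusted p = 0.0852).

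Secretory products and secretory machinery were examined as a list of 20 genes linked to these factors. Of the 20, 13 were higher in P2, 1 was lower and 6 did not pass, against 16.3% of all genes higher and 10.7% lower, with a median log2 fold change of 2.11. Muc2, Agr2, Tff3, Fcgbp, Clca3, Zg16, Gcg and Sst are also goblet or enteroendocrine markers of the lists above. All of them were called higher, which repeats the marker result. Of the rest, Copz2, Dnajb9, Edem1, Hspa5 and Sec23b were higher. Gal3st1, Hsp90b1, Pdia4, Sec16b, Sec24a and Sec24d did not pass. Among the larger differences were those of the hormone Sst, with a log2 fold change of 6.23, and the goblet cell lectin Zg16, with 4.41. Copz2, a subunit of the COPI coat, stood at 61.4 and 56.1 CPM in P2 and at 3.17 CPM or less in every other library. It had no count in either P3 library, and its log2 fold changes against P1, P4 and P5 were 4.74, 6.82 and 5.23. Sec23a, a subunit of the COPII coat, was the 1 lower gene, with a log2 fold change of -1.63 (adjusted p = 0.00451). Its level was 694 and 551 CPM in P1 and 36.5 and 82.5 CPM in P2. In P3 Sec23a was at 203 and 131 CPM, in P4 at 105 and 83.4, and in P5 at 134 and 103. Against the single populations, it was called lower in P2 only against P1. Sec23b, called higher in P2, stood at 156 and 138 CPM there and between 61.1 and 109 elsewhere.

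The 2 libraries labelled P2 differed in their mix of secretory markers, which allowed the factors to be set beside that mix. Summed Paneth markers were lower in replicate 2, at 0.719 times replicate 1. Goblet markers were 2.24 times, enteroendocrine markers 2.57 times and tuft markers 1.71 times as high in replicate 2. Creb3l4 had a ratio of 0.798 (95% counting interval 0.708 to 0.899), the lowest of the 7 and the nearest to the Paneth markers. Foxa1 had the highest, 1.33 (1.11 to 1.59). Gfi1 (0.913), Creb3l1 (0.908), Foxa3 (0.969), Foxa2 (1.003) and Sox4 (1.22) had intervals that include 1. None of the 7 ratios reached those of the goblet, tuft or enteroendocrine markers, whereas Neurod1 and Pou2f3 had ratios of 2.90 and 2.39. Bhlha15 had a ratio of 0.812, close to that of Creb3l4, and Spdef had 0.912 (0.836 to 0.995). Atoh1 went the other way, at 1.21 (1.08 to 1.37). These intervals cover counting error only and compare 2 libraries, not conditions.

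**Figure D5:**
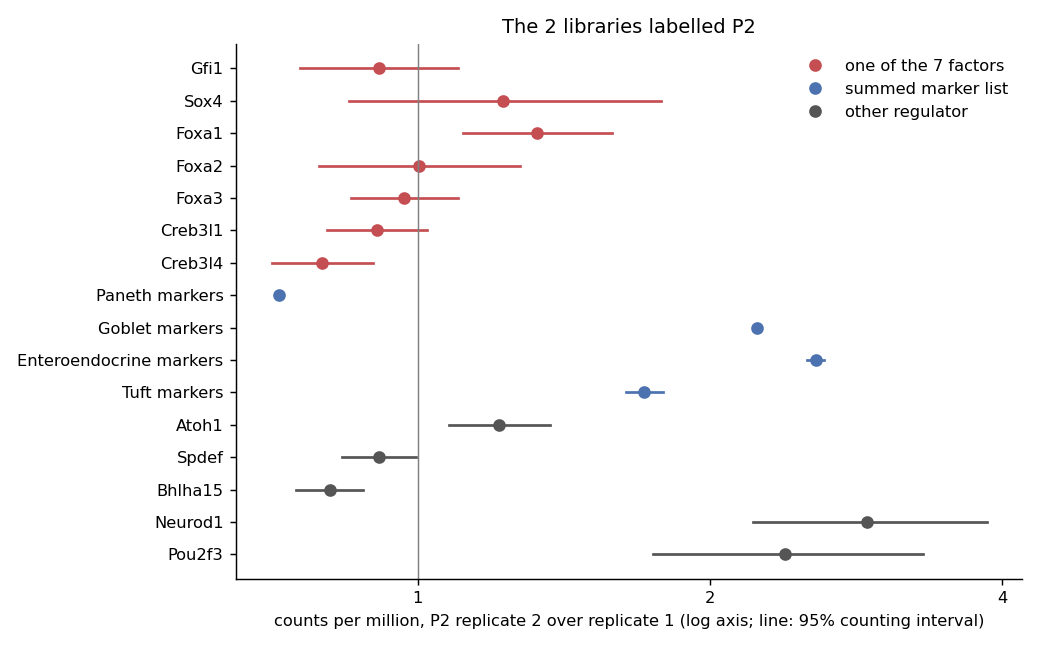
Ratio of CPM in replicate 2 over replicate 1 of P2, on a log axis, for the 7 factors (red), summed marker lists (blue) and 5 other regulators (grey), with 95% counting intervals. The factors lie between 0.798 (Creb3l4) and 1.33 (Foxa1), the Paneth list at 0.719 and the enteroendocrine list at 2.57.

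The genes most like each factor were sought by Pearson's r of log2 CPM over the 10 libraries. Since all but Sox4 separate P2 from the other 8 libraries, these coefficients are high for many genes and are given as a description. Gfi1 was most like March9 (r = 0.992), Ogfod2 and Nlrx1. Foxa1 was most like Cd276 (r = 0.985), Ccdc127 and Plcb4, and Foxa2 was most like Casc4 (r = 0.985), Slc17a9 and Ccdc141. Foxa3 was most like Map3k9 (r = 0.993), Vmac and Slc12a8. Creb3l1 was most like Capn8 (r = 0.987), Scnn1a, the alpha subunit of the epithelial sodium channel, and Tmem44. Creb3l4 was most like Hgfac (r = 0.993), a serine protease, Tpd52l1 and Chrm3, the M3 muscarinic receptor, and Spdef was the 6th gene in its order (r = 0.986). Atoh1 was the 16th gene for Foxa3 (r = 0.981) and the 349th for Gfi1 (r = 0.878).

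Sox4 was most like Cd44 (r = 0.983), the hyaluronan receptor of crypt base cells, followed by Mcc (r = 0.980) and Dpysl5 (r = 0.966). The mean level of Cd44 was 61.4 CPM in P4 and 61.7 in P5, 33.9 in P2, 16.7 in P3 and 6.78 in P1, which is the order of Sox4 apart from P4 and P5 being almost equal. Lgr5, the stem cell receptor, had an r of 0.897 with Sox4. With the other 6 factors its r ran from 0.569 for Creb3l4 to 0.778 for Creb3l1. Summed stem cell markers were also highest in P4 and P5, between 4456 and 7403 CPM, against 1940 and 1237 in P2. The markers of that list did not all follow the sum. Against the average of the others, 2 of the 8 were called higher in P2 and 1 lower, against 16.3% and 10.7% of all genes. Lgr5 stood at 80.3 and 81.0 CPM in P2, at 94.3 and 114 in P4 and at 71.8 and 103 in P5. Neurog3 had an r of 0.793 with Sox4 and between -0.18 and 0.22 with the other 6 factors.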

How the data were processed

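Poly-A RNA of 10000 sorted cells per library was sequenced with 75 cycles. The authors mapped reads to mm9 with TopHat 2.1.0 and counted them on exons with HTSeq 0.11.2, without strand, and deposited raw counts per gene, which are the values used. The gene annotation they counted on is not given in the sources used here. Reads with several alignments were not counted, and the kit does not mark strand. Samples were grouped by title. Rows without a gene name held at most 0.000596% of counts and were left out, and 204 rRNA names were removed, as in the study.

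Counts were filtered with filterByExpr (minimum count 10), scaled with TMM and fitted with 5 population means over 10 libraries (5 residual degrees of freedom) in edgeR 4.0.16 with R 4.3.3. Each contrast was put to edgeR's quasi-likelihood test, p-values were adjusted by Benjamini-Hochberg across its 13708 genes, and a call was made at an adjusted p under 0.01. Comparisons of P2 share their P2 libraries. P-values rest on the spread between the 2 sorts of a population, pooled over all 5 populations, P3 included, and moderated across genes. They do not measure the spread of only the populations compared. Whether the 2 replicates came from separate mice is not given beyond the word biological. DESeq2 1.42.0 was an alternative. Positions, lengths and overlaps came from GENCODE M1 on NCBIM37, in which 33643 of the 35006 names were found. The smallest share a library could show, 3 counts, was between 4.63e-05% and 7.78e-05%.

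In counts simulated from these libraries, 192 of the 13191 genes that passed the filter had been changed 4-fold. Of the 192, 56.3% passed for P2 against the mean of the rest, with 2 unchanged genes called, and 27.1% between P2 and P4, with 0 unchanged genes called. All other genes were simulated without a difference, whereas 27% and 14.3% of all genes were called in the data for these comparisons. The adjusted threshold is therefore stricter in the simulation, and its shares are not the recovery of the tests above.

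The 7 factors, the lists and the tests were chosen with earlier results of these data known. Genes named are the 7 factors, the 3 genes most like each, and preset related regulators plus the 3 largest called rises and falls. Named too are the listed Notch pathway genes, every structural relative tested, the 3 largest called rises and falls among secretory genes, and markers. Python 3.11.15 with pandas 2.3.3 and matplotlib 3.10.9 served for summaries and plots.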

Additional observations from a re-analysis of the deposited data

How the results depend on the processing

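The count of 6 factors called higher in P2 than the average of the others was 6 under DESeq2's size factors, no filter, DESeq2, an adjusted p under 0.05, rRNA names kept, mitochondrial genes removed and both P3 libraries left out, and 5 or 6 with 1 library left out. The 0 factors called between P5 and P4 and in the interaction stayed 0 under every alternative run. Over the 10 pairs of populations, the 25 called tests became 44 with no filter on low counts, and the cause was not tested. They numbered between 13 and 30 with 1 library left out, lowest without replicate 1 of P2, 15 without its replicate 2 and 16 without replicate 2 of P4. All genes called for P2 against the average, 3707, became 5708 at an adjusted p under 0.05, and between 1709 and 4454 with 1 library left out, lowest without replicate 1 of P2 and 1867 without replicate 2. Related regulators called, 23, ranged from 16 to 24 with 1 library left out.

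Each of the 10 libraries was left out in turn. Leaving out either P3 library lost none of the 25 pair calls, replicate 1 of P2 lost 12, replicate 2 lost 10, and a library of P1, P4 or P5 lost between 7 and 9. Creb3l1 between P2 and P4 was also lost with mitochondrial genes removed (log2 fold change 1.52, adjusted p = 0.0127 in edgeR's test). Without replicate 2 of P3, the log2 fold changes of P2 against P3 became 11.6 for Gfi1 and 10.9 for Foxa2, which are no bounds since the library left had no count of either, 4.23 for Foxa1, 5.10 for Foxa3 and 4.63 for Creb3l1. Without replicate 1 of P3, those of Gfi1 and Foxa2 were 3.89 and 4.22. P2 against P1 moved to 3.50 for Foxa3 without replicate 1 of P1, and to 5.26 for Foxa3 and 4.66 for Creb3l4 without replicate 2. A population left with 1 library was assumed to vary like the others.

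The uncalled Sox4 value for P2 against the average reversed to -0.11 without both P3 libraries, and ranged from -0.047 to 0.56 with 1 library left out. Without both P3 libraries, pair counts and the interaction could not be computed. With no filter, the median of all genes was -0.11, and fold changes are relative to it.

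Deviations of same-numbered libraries correlated from -0.06 to 0.55 across the 10 population pairs, 9 of them over 0.1. No label ties a number to a mouse or day, so the main fit did not pair the samples and leaves any shared deviation in its spread. With the replicate block, 6 factors and 4065 genes were called for P2 against the average, 29 pair tests and 22 related regulators. Foxa1 then passed against P4 (adjusted p = 0.00440) and P5 (adjusted p = 0.00135), Sox4 for P2 against P1 (adjusted p = 0.00684) and Foxa1 for P1 against P4 (adjusted p = 0.00848), in edgeR's test. With 2 libraries per population, a factor that did not pass may still differ. In simulated counts, 27.1% of the genes changed 4-fold were called between P2 and P4. Far fewer genes differed there than were called in the data, so this share is not the recovery of the tests above.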
